A study of Mus musculus with 9 samples.

Results

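The genes *Ddhd1*, *Gpcpd1*, *Acadl* and *Idh1* encode enzymes of lipid and fatty acid metabolism. They are 4 of the 689 genes of a deposited RNA-seq table of mouse brain, and all 4 were found in it by their symbols. The genes were chosen by name with their measured values in view, and the authors had already selected the table's genes on these same libraries, with a model of age and microglial state. The differences between groups given for these genes are therefore descriptions, and no p-value is printed for them.

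The libraries came from frozen hemibrains of male C57BL/6J mice, with 1 brain per library and 3 libraries in each of 3 groups. Young controls (5 months) and aged controls (24 months) had eaten control diet for 6 weeks. Aged-repopulated mice (24 months) had eaten PLX5622, an inhibitor of the CSF1 receptor that removes microglia, for 2 weeks and then control diet for 4 weeks, in which microglia could return. Supplier differed with age (JAX for young, NIA for aged mice), and effects of the pair cannot be told apart. The labels name no transgene or deletion. The authors state that the RNA-seq brains were taken after behavioral testing. They also describe injections of bromodeoxyuridine, a label of dividing cells, given to all mice on the days before sacrifice. The tissue is a whole homogenate, in which fewer cells of a type and less RNA per cell cannot be told apart. All values are RPKM, in which a gene's reads are divided by its transcript length and by the library's mapped reads, which puts genes of different length on 1 scale. Comparisons between libraries depend on this scaling. Results under other scalings are given where they change a call of an enzyme or pathway gene. Calls of cell type markers and immediate early genes are given with RPKM as deposited only.

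Brain phospholipids are broken down and rebuilt continuously. *Ddhd1* encodes a phospholipase A1 that prefers phosphatidic acid and releases a fatty acid and a lysophospholipid. *Gpcpd1* encodes a phosphodiesterase that splits glycerophosphocholine, the end product of phosphatidylcholine breakdown, into choline and glycerol phosphate. *Acadl* encodes the long-chain acyl-CoA dehydrogenase, which opens rounds of mitochondrial fatty acid oxidation that start from long chains. *Idh1* encodes the isocitrate dehydrogenase of cytosol and peroxisomes, which makes the NADPH that fatty acid and sterol synthesis consume. In the brain, fatty acid oxidation is mainly known from astrocytes, and lipid synthesis is intense in myelinating oligodendrocytes.

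All 4 genes were called different between aged and young control brains, 3 of them lower and 1 higher with age. *Gpcpd1* was lower by 24.0%, *Idh1* by 11.5% and *Ddhd1* by 7.83%, whereas *Acadl* was higher by 18.2% (ratio of group means, n = 3 in each group). With repopulation *Ddhd1* was called higher than in aged controls, by 12.5%, and *Gpcpd1*, *Acadl* and *Idh1* were not called. Called means here an adjusted p under 0.05 in a limma fit of log2(RPKM + 1) over the 689 genes and all 9 libraries, with Benjamini-Hochberg adjustment. Of all 689 genes 62.8% were called with age, 46.3% higher and 16.5% lower, and the groups did not overlap for 70.1%. The direction of the table's calls depended on scaling: 319 were higher and 114 lower with RPKM as deposited, and 78 were higher and 215 lower with each library centred on its median. Centring makes the library medians over these selected genes equal, which moved the median log2 difference with age from 0.096 to -0.012. That step takes rises and falls among them as balanced, which cannot be checked within a selected table. The turn toward lower calls follows in part from this step. The 4 of 4 members called and not overlapping with age stand against this background of genes selected for such differences, and nothing is read from the count.

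The genes were expressed at similar levels, with means over the 9 libraries of 14.7 RPKM for *Ddhd1*, 20.3 for *Gpcpd1*, 17.8 for *Acadl* and 14.7 for *Idh1*. Between 29.9% and 50.7% of the table's genes had a lower mean. *Ddhd1* and *Idh1* were at nearly the same level. By group means *Gpcpd1* led the 4 in young controls and, by a smaller margin, in aged-repopulated brains, while *Acadl* led in aged controls. In aged control library 1 *Gpcpd1* was still above *Acadl*, at 22.6 against 20.1 RPKM.

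**Figure D1:**
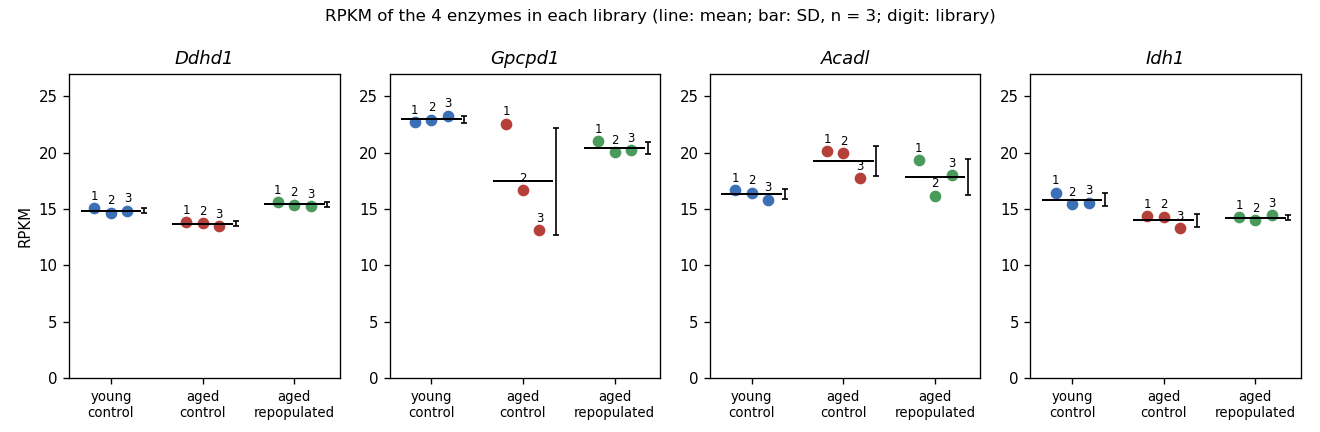
RPKM (y axis, from 0) of each enzyme in every library, grouped on the x axis into young control, aged control and aged repopulated, with the mean as a line and the SD (n = 3) as a bar. The aged control points of *Gpcpd1* spread from 13.1 to 22.6 RPKM, whereas those of *Ddhd1* lie between 13.5 and 13.9, below all its other points.

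*Ddhd1* lies on the minus strand of chromosome 14 of GRCm38 (mm10), from 45588467 to 45658143. Its RPKM was 15.1, 14.7 and 14.9 in the young controls, 13.9, 13.8 and 13.5 in the aged controls, and 15.6, 15.4 and 15.2 in the aged-repopulated brains. The 3 groups did not overlap in any pairing, with aged controls lowest and aged-repopulated brains highest. Group means were 14.9 ± 0.20, 13.7 ± 0.21 and 15.4 ± 0.20 RPKM (SD, n = 3). The difference of aged from young controls was -0.11 on the log2 scale with a standard error of 0.03, and that of aged-repopulated brains from aged controls was 0.16 with the same standard error. These are small differences from libraries that lay close together, with coefficients of variation between 1.27% and 1.53% in the 3 groups, where the table's medians were between 2.79% and 4.18%. Against young controls the aged-repopulated brains were higher by 0.05 (standard error 0.03), which was not called and turned to -0.004 under median centring.

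The longest transcript of *Ddhd1* is 9820 nucleotides, longer than that of 95.6% of the 686 genes with an annotated length, and the libraries differed in how RPKM depended on transcript length. Per doubling of transcript length, the log2 level relative to the gene's mean changed by 0.05 to 0.06 in young controls, by -0.09 to -0.04 in aged controls and by -0.0045 to 0.03 in aged-repopulated brains. After each library was corrected for this trend, *Ddhd1* differed by -0.004 with age and by 0.05 with repopulation and was called in neither comparison. The call of *Ddhd1* with repopulation was also absent in a fit of only the groups compared and without aged control library 2 or 3, without aged-repopulated library 1 or 3 and without young control library 2. An antisense gene, *Gm15601*, overlaps *Ddhd1* on the opposite strand, and the strand setting of the counting is not given in the sources used here, so reads of the pair cannot be told apart.

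**Figure D2:**
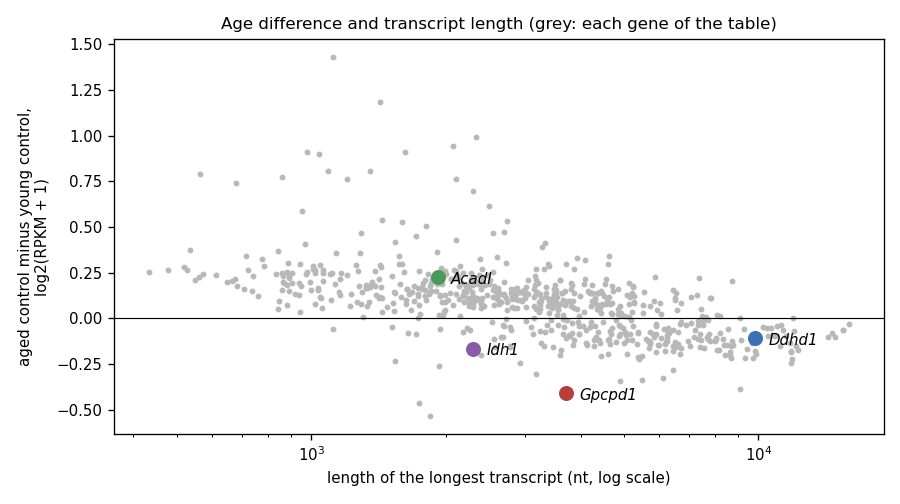
Difference of aged from young controls on the log2(RPKM + 1) scale (y axis) against the length of the longest transcript in nucleotides (x axis, log scale) for each gene of the table in grey and the 4 enzymes in colour. *Ddhd1* lies far to the right at 9820 nucleotides and -0.11, and *Acadl*, at 1916 nucleotides and 0.23, lies among the short transcripts, most of which are higher with age.

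*Gpcpd1* lies on the minus strand of chromosome 2, from 132529082 to 132587729, and its longest transcript is 3703 nucleotides. It was 22.7, 22.9 and 23.3 RPKM in young controls, 22.6, 16.6 and 13.1 in aged controls, and 21.0, 20.05 and 20.2 in aged-repopulated brains. Young controls and aged-repopulated brains formed tight groups with no overlap between them, and the aged controls ran from just under the young range to well below every other library. The group means were 23.0 ± 0.30, 17.4 ± 4.8 and 20.4 ± 0.53 RPKM (SD, n = 3). The coefficient of variation was 1.29% in young controls and 27.3% in aged controls, the second highest of the 689 genes there, after the immediate early gene *Junb*. Both were singled out after their values were seen.

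The difference of *Gpcpd1* with age was -0.41 on the log2 scale with a standard error of 0.14. It was -0.23 without aged control library 3 and -0.60 without aged control library 1. It was called in the fit of all 9 libraries, and not without young control library 1, 2 or 3, without aged control library 2 or 3, or without limma's moderation of variances. With repopulation the difference was 0.25 (standard error 0.14) and not called, and aged control library 1 lay above all aged-repopulated libraries. Without that library it was 0.44 and called, and without aged control library 3 it was 0.07. Between aged-repopulated and young controls it was -0.16 (standard error 0.14), which was called only in a fit of those groups alone, and the groups did not overlap. That standard error rests on a spread shared by all 9 libraries, the aged controls included, although they are outside this comparison. The coefficient of variation of *Gpcpd1* was 27.3% in aged controls, against 1.29% in young controls and 2.57% in aged-repopulated brains.

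Immediate early genes, which neuronal activity and stress induce, differed among the same aged control libraries. The summed RPKM of the 5 genes of a list of 19 that are in the table (*Fos*, *Junb*, *Nr4a1*, *Btg2* and *Dusp1*) was 106 in aged control library 1, 153 in library 2 and 170 in library 3, where *Gpcpd1* was 22.6, 16.6 and 13.1. In young controls the sum was 78.2, 106 and 130 while *Gpcpd1* stayed between 22.7 and 23.3. In aged-repopulated brains it was 59.0, 66.6 and 71.8. The part of this difference in the values of *Gpcpd1* was not tested. All 5 of these genes were called lower with repopulation, against 5.81% of all genes.

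*Acadl* lies on the minus strand of chromosome 1, from 66830839 to 66863277, with a longest transcript of 1916 nucleotides. It was 16.7, 16.5 and 15.8 RPKM in young controls, 20.1, 19.9 and 17.7 in aged controls, and 19.3, 16.2 and 18.0 in aged-repopulated brains. Every aged control library lay above every young one, and the aged-repopulated libraries overlapped both groups. A processed pseudogene, *Gm15793*, lies within *Acadl*. Group means were 16.3 ± 0.44, 19.3 ± 1.3 and 17.8 ± 1.6 RPKM (SD, n = 3). The log2 difference with age was 0.23 (standard error 0.07) and was called. With repopulation it was -0.11 and against young controls 0.12 (standard error 0.07 each), neither called and both with overlapping groups.

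The call of *Acadl* with age depended on scaling. The median log2 difference over the 689 genes was 0.096 with age, and with each library centred on its median *Acadl* differed by 0.12, with quantile normalization by 0.14 and with the length correction by 0.06. It remained positive and was not called in these 3 fits, nor without young control library 3 or aged control library 2. Among aged-repopulated brains *Acadl* was highest in library 1 and lowest in library 2, and so was the summed RPKM of 8 microglial markers, which was 318 in library 1, 219 in library 2 and 233 in library 3. The other groups did not share this order. In aged controls the marker sum was highest in library 2 and *Acadl* in library 1, and in young controls the sum was lowest in library 1, where *Acadl* was highest. The lysosomal protease gene *Ctsz* had the most similar deviations from the group means, with a mean absolute difference of 0.19 between scaled deviations (median over all genes 1.10). The part of microglial RNA in the values of *Acadl* was not tested.

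*Idh1* lies on the minus strand of chromosome 1, from 65158616 to 65186500, with a longest transcript of 2302 nucleotides. It was 16.5, 15.4 and 15.6 RPKM in young controls, 14.4, 14.3 and 13.3 in aged controls, and 14.2, 14.0 and 14.4 in aged-repopulated brains. All 6 aged libraries lay below all 3 young ones, and the aged-repopulated values fell inside the aged control range, apart from library 3, which was barely above it. Group means were 15.8 ± 0.56, 14.0 ± 0.61 and 14.2 ± 0.21 RPKM (SD, n = 3). The log2 difference with age was -0.17 (standard error 0.04). It was called in all 18 alternative fits that gave it a value, from -0.11 with a pseudocount of 10 to -0.31 with the length correction on the log2 scale. Some of these fits, such as those without an aged-repopulated library, could not change the difference itself.

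With repopulation *Idh1* differed by 0.02 (standard error 0.04), and it was not called in any alternative. Against young controls the difference of aged-repopulated brains was -0.14 (standard error 0.04), which was not called in the fit as designed. It was called with median centring (-0.20), quantile normalization (-0.19), the length correction (-0.19) and the correction for GC content (-0.16). These were 4 of 18 alternatives, and each removed a shift shared by a library's genes, so they are not separate checks.

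**Figure D3:**
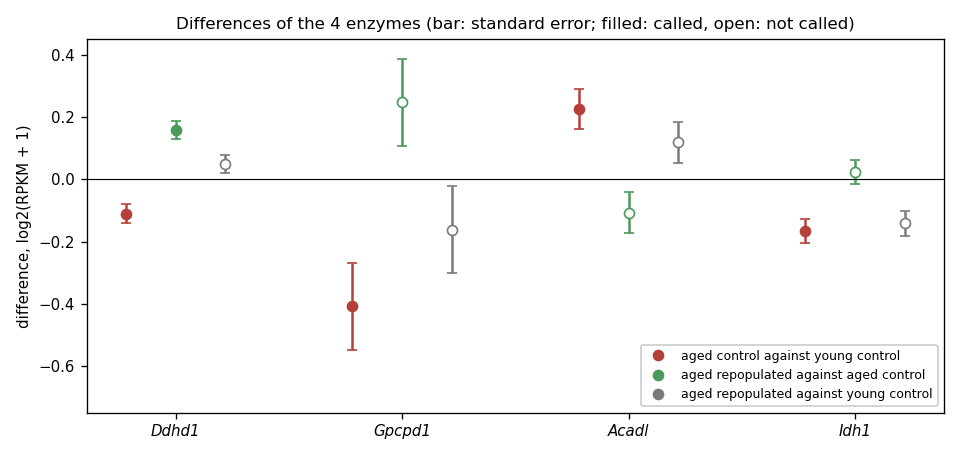
Differences on the log2(RPKM + 1) scale (y axis) of the 4 enzymes (x axis) in the 3 comparisons, with standard errors as bars and filled points for called differences. All 4 points for age are filled, from -0.41 for *Gpcpd1* to 0.23 for *Acadl*, and for repopulation *Ddhd1* alone has a filled point, at 0.16.

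The comparisons with repopulation share their aged control libraries with the comparison of age, so a high or low aged control library moves both. Side by side, the log2 differences with age and with repopulation were -0.11 and 0.16 for *Ddhd1*, -0.41 and 0.25 for *Gpcpd1*, 0.23 and -0.11 for *Acadl*, and -0.17 and 0.02 for *Idh1*. Between aged-repopulated and aged control brains 1 of 4 members was called, higher, against 8.71% of the 689 genes called and 2.9% called higher, and the groups did not overlap for 1 of 4 members and for 37.4% of the genes. Between aged-repopulated and young control brains 0 of 4 were called in limma, against 4.93% of the genes. Of the 4, 1 had an unadjusted p under 0.05, as did 196 of the 689 genes. There the groups did not overlap for 3 of 4 members and for 42.7% of the genes.

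The other genes of these pathways were taken from 10 lists of textbook members that hold 313 genes. Of these, 17, the 4 members included, are among the 689 genes, 1 list (neutral lipid breakdown) has no gene there, and the rest are not analysed here. Of the 13 others, 11 were called with age, 8 higher and 3 lower, against 62.8% of all genes called, 46.3% higher and 16.5% lower. Their directions depended on scaling, with 3 higher and 4 lower under median centring, 4 higher and 3 lower with quantile normalization, 2 higher and 4 lower with the length correction, and 3 higher and 3 lower with the GC correction. With repopulation 0 of the 13 were called in limma, against 8.71% of all genes. Of the 13, 7 had an unadjusted p under 0.05, as did 271 of the 689 genes. Median centring called 3, *Elovl5*, *Hmgcs1* and *Ogdh*, all higher. Against young controls 2 of 13 were called, both higher, where 4.93% of all genes were called and 4.21% called higher. Each of those 4 scalings called 3, with *Acss2* lower in addition. The lists and the members were chosen with earlier results of these data known.

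**Figure D4:**
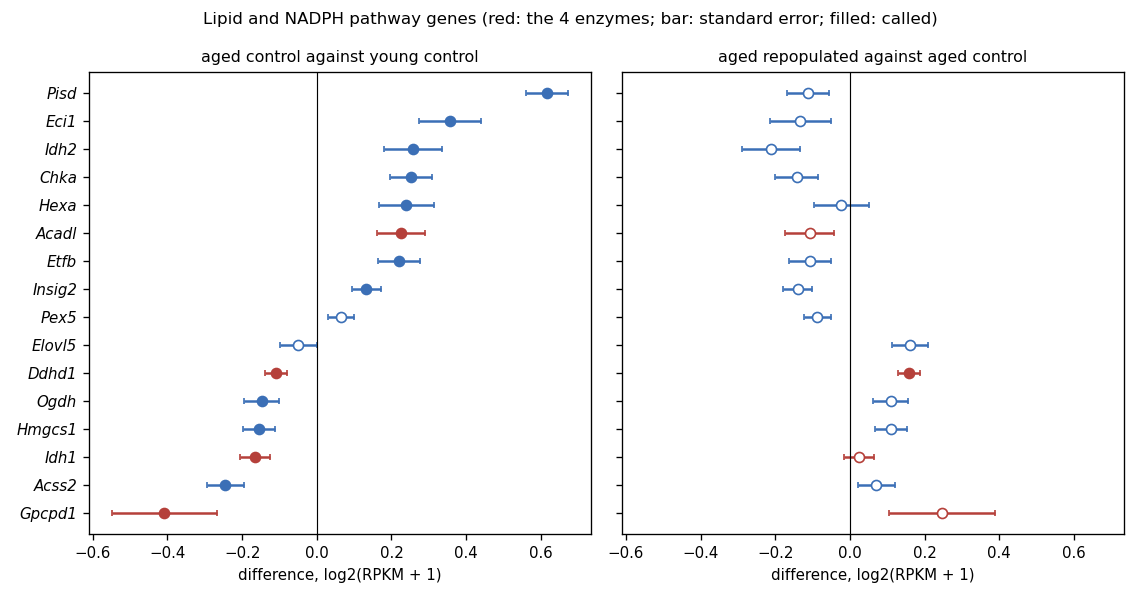
Differences on the log2(RPKM + 1) scale (x axis) of 16 pathway genes (y axis, ordered by the difference with age), with age on the left and with repopulation on the right, standard errors as bars and filled points for called differences. With age *Gpcpd1* is lowest at -0.41 and *Pisd* highest at 0.62, and with repopulation only *Ddhd1* is filled.

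Fatty acid oxidation in mitochondria was represented by 3 genes of a list of 37, all called higher with age, as were 46.3% of all genes. With the length correction 0 of the 3 were called, and median centring or quantile normalization left *Eci1* alone. Beside *Acadl* these were *Eci1*, whose enzyme shifts the double bond of unsaturated fatty acids, and *Etfb*, a subunit of the flavoprotein that takes electrons from acyl-CoA dehydrogenases. *Eci1* was 10.5, 10.5 and 8.74 RPKM in young controls and 12.4, 13.7 and 12.8 in aged controls, a log2 difference of 0.36 (standard error 0.08). *Etfb* was 17.6, 18.4 and 18.2 RPKM in young controls and 20.1, 22.2 and 21.5 in aged controls, a difference of 0.22 (standard error 0.06). Neither overlapped between the groups. In aged-repopulated brains all 3 genes lay between the means of the control groups, with log2 differences from aged controls between -0.13 and -0.11, none called. *Pex5*, the receptor that imports peroxisomal enzymes and the only gene of the peroxisomal list in the table, averaged 13.1 RPKM in young and 13.8 in aged controls and was not called. With the length correction *Eci1* was at 0.12 and *Etfb* at -0.04, neither called, and *Etfb* was not called with median centring, quantile normalization or the GC correction either.

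Among the genes of NADPH supply, *Idh2* was called in the opposite direction to *Idh1* with age. *Idh2* encodes the mitochondrial counterpart of the *Idh1* enzyme. It was 16.2, 16.7 and 13.6 RPKM in young controls, 17.9, 20.6 and 17.6 in aged controls and 15.7, 16.5 and 15.7 in aged-repopulated brains, and it was called higher with age by 0.26 on the log2 scale (standard error 0.08). A factor applied to a whole library leaves the ratio of *Idh1* to *Idh2* unchanged, whereas quantile normalization and the sequence corrections can change it. The ratio within a library was 1.02, 0.923 and 1.15 in young controls. It was 0.804, 0.694 and 0.757 in aged controls and 0.907, 0.850 and 0.917 in aged-repopulated brains. All young ratios lay above all aged ones, and the aged-repopulated ratios lay between the control groups with no overlap. This ratio was chosen after its values were seen and was not tested. *Idh2* was not called with age under median centring, quantile normalization or either sequence correction, without moderation, or without young control library 3 or aged control library 2.

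Of the genes of acetyl-CoA, sterol and tricarboxylic acid metabolism, *Acss2*, *Hmgcs1* and *Ogdh* were called lower with age, *Insig2* was called higher and *Elovl5* was not called. *Acss2*, which makes acetyl-CoA from acetate in cytosol and nucleus, was 19.5, 19.4 and 18.8 RPKM in young controls, 16.9, 16.7 and 14.7 in aged controls, and 16.8, 17.2 and 16.8 in aged-repopulated brains. Its log2 difference with age was -0.25 (standard error 0.05), and its pattern over the 9 libraries was the nearest of all genes to that of *Idh1*. *Hmgcs1*, which feeds sterol synthesis, differed by -0.15 (standard error 0.04), with means of 70.0 RPKM in young and 62.8 in aged controls. *Ogdh*, a subunit of the oxoglutarate dehydrogenase of the tricarboxylic acid cycle, also differed by -0.15 (standard error 0.05), with means of 36.4 and 32.8 RPKM. All 3 were called lower with age in each of the fits with median centring, quantile normalization, the length correction and the GC correction. Each of these fits removed a shift shared by a library's genes, so they are not separate checks. Over the table's genes the median log2 difference with age was 0.096 with RPKM as deposited and -0.013 to 0.012 in these fits. *Ogdh* was not called without young control library 1, 2 or 3 or without aged control library 3 (-0.09), and *Hmgcs1* was not called without young control library 3 (-0.12). *Insig2*, which holds back sterol synthesis, was higher with age by 0.13 (standard error 0.04), a call absent under those same 4 scalings and without young control library 3. *Elovl5*, an elongase of polyunsaturated fatty acids, had log2 differences of -0.05 with age and 0.16 with repopulation. It was called lower with age under median centring (-0.16) and the length correction (-0.17). With repopulation it was called higher under median centring (0.22), quantile normalization (0.20) and without aged control library 1 (0.18). *Hmgcs1* and *Ogdh* were each called higher with repopulation under median centring (0.16 for both), and *Ogdh* also without aged control library 1 (0.15).

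Phospholipid synthesis was represented by *Chka* and *Pisd*, both called higher with age. *Chka* encodes choline kinase, which commits choline, the product of the *Gpcpd1* enzyme, to phosphatidylcholine synthesis. It was 20.03, 19.2 and 19.1 RPKM in young controls, 21.6, 23.1 and 25.5 in aged controls, and 21.4, 19.997 and 21.7 in aged-repopulated brains. The ratio of *Gpcpd1* to *Chka* within a library was 1.13, 1.19 and 1.22 in young controls, 1.05, 0.720 and 0.515 in aged controls, and 0.982, 1.002 and 0.929 in aged-repopulated brains. In aged control library 3 *Chka* was highest and *Gpcpd1* lowest of all 9 libraries. The ratio was chosen after its values were seen and was not tested, and *Chka* was not called with age under median centring or either sequence correction. *Pisd*, whose enzyme makes phosphatidylethanolamine from phosphatidylserine, was higher by 0.62 with age (standard error 0.06) and by 0.50 in aged-repopulated against young brains. Its reads may be shared with pseudogenes, so its level is uncertain.

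*Hexa*, which encodes a subunit of a lysosomal enzyme that degrades gangliosides, was called higher with age, by 0.24 on the log2 scale (standard error 0.07). It was not called under median centring, quantile normalization or either sequence correction, without moderation, or without young control library 1 or aged control library 2 or 3. Of the microglial markers, 8 of 15 are in the table. In aged controls 7 of these 8 were called higher than in young controls, against 46.3% of all genes, and the summed RPKM of the 8 was 155 to 161 in young controls and 229.5 to 272.5 in aged controls. With repopulation 0 of the 8 were called in limma (0 at an unadjusted p under 0.05), against 8.71% of all genes called and 271 of 689 genes at that unadjusted p. The oligodendrocyte list (18 genes) was represented by *Opalin* alone, a myelin gene, at 15.5 to 19.0 RPKM in young controls, 10.9 to 13.2 in aged controls and 12.1 to 19.2 in aged-repopulated brains. The astrocyte list had 2 of 13 genes in the table, and these, *Glul* and *Gjb6*, summed to 422 to 440 RPKM in young controls, 473 to 509 in aged controls and 467 to 504 in aged-repopulated brains. The neuronal genes (3 of 17), *Rbfox3*, *Map2* and *Gad1*, summed to 282 to 298, 293 to 314 and 290 to 294 RPKM, and the endothelial genes (3 of 12), *Slco1a4*, *Itm2a* and *Ly6c1*, to 55.9 to 56.1, 46.6 to 53.7 and 41.9 to 51.5 RPKM. With RPKM as deposited, the genes within the neuronal and endothelial lists went different ways with age. *Map2* was called lower (-0.12) and *Rbfox3* and *Gad1* higher (0.16 and 0.17), and *Itm2a* was called lower (-0.46) and *Ly6c1* higher (0.37), with *Slco1a4* at -0.03 and not called. The median log2 difference with age over the 689 genes was 0.096, and their summed RPKM was also higher in aged than in young controls. Calls of these markers under other scalings are not given, so their directions may depend on scaling. The part of cell composition in the 4 enzymes' values was not tested.

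The genes with the most similar patterns differed between the 4 enzymes. Likeness was the mean absolute difference between z-scored log2 values over the 9 libraries, where 0 means the same pattern. These values were not corrected for transcript length, and the part of the length trend in the likenesses was not tested. Genes found in this way tend to share a member's order of libraries and groups because they were picked for it. For *Ddhd1* these were *Dync1h1* (0.205), the dynein heavy chain, *Kif1a* (0.232), a kinesin, and *Kpnb1* (0.290), a nuclear import receptor, where the median gene was at 1.35. *Dync1h1* was 49.3, 45.9 and 50.4 RPKM on average in young control, aged control and aged-repopulated brains, the order of *Ddhd1*. For *Gpcpd1* they were *Ogdh* (0.247), *Ptch1* (0.272) and *Usp22* (0.291), with a median of 1.29. In these genes, picked for likeness to *Gpcpd1*, aged control library 1 was the highest of its group and library 3 the lowest. *Ogdh* ranged only from 30.3 to 34.9 RPKM there. For *Acadl* they were *Zcchc24* (0.237), *Samd14* (0.246) and *2810008D09Rik* (0.248), with a median of 0.824. For *Idh1* they were *Acss2* (0.244), *Kcnj10* (0.253), an astrocyte potassium channel gene, and *Tfrc* (0.269), the transferrin receptor, with a median of 1.33. After group means were subtracted, the nearest genes were *Sash1* for *Ddhd1* (0.360), *Usp2* for *Gpcpd1* (0.328) and *Sat1* for *Idh1* (0.234).

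**Figure D5:**
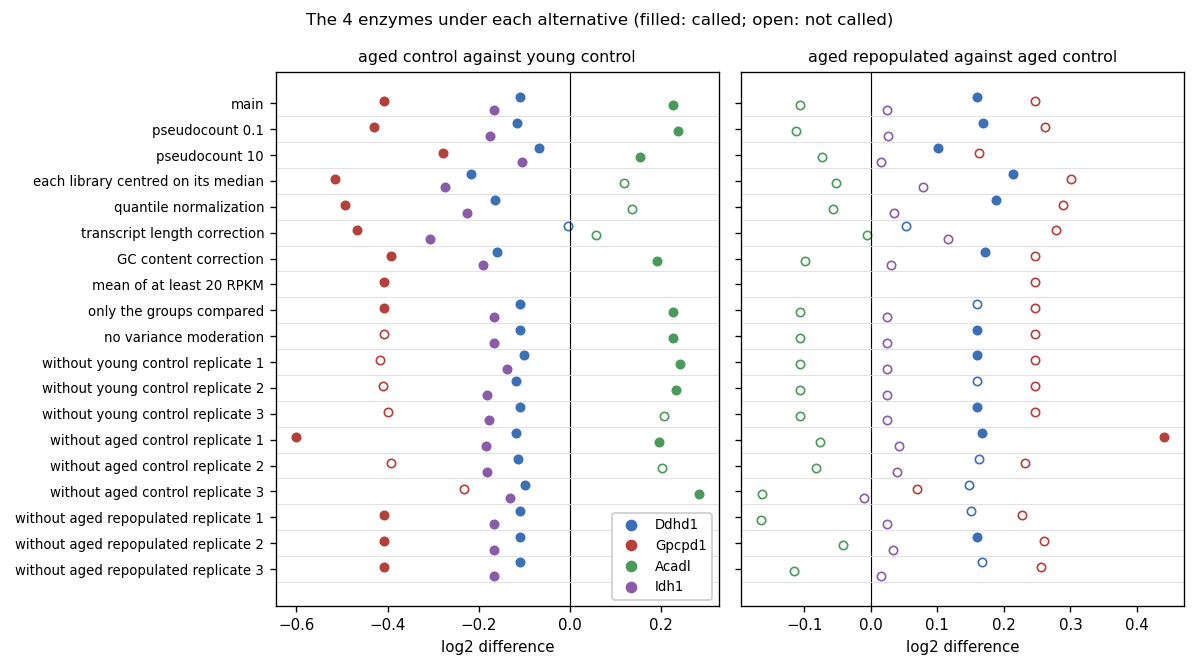
Log2 differences (x axis) of the 4 enzymes with age (left) and with repopulation (right) under each alternative that gives a log2 difference (y axis), with filled points for called differences. *Idh1* is filled with age in every fit that holds it, and *Ddhd1* moves to -0.004 with age and 0.05 with repopulation under the transcript length correction.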

How the data were processed

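RNA of 9 hemibrains was sequenced by the authors, who called bases with Casava 1.8.2, used ELAND to align them to mm10, expressed genes as RPKM, applied a threshold of 10 RPKM and deposited the RPKM of the genes called by a linear model of age and microglial state that also held groups not analysed here. Of the deposited genes, 16 have a mean under 10 RPKM. The counting step is not given in the sources used here. The authors' F and t scores, p-values and adjusted p-values were not used, and 0 library columns were left unmapped. No library pair held identical values. Read depth is unknown: no steps of whole reads were found (best mean cosine 0.128 to 0.166 over 400 genes, 1 being perfect), so precision rests on the spread between 3 mice a group. The search used annotated transcript lengths, and the lengths behind the authors' RPKM are not given in the sources used here. If those lengths differ, steps would be missed at any depth, so the search cannot decide the depth.

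From the deposited RPKM, log2(RPKM + 1) of all 689 genes was fitted with limma 3.58.1 (R 4.3.3), all 9 libraries together, with Benjamini-Hochberg adjustment at 0.05 over all genes. A log2 difference on this scale understates that of low genes. The code was tested on simulated data. Transcript lengths, GC content and coordinates came from GENCODE M21 on GRCm38 (686 symbols matched, 19 by an older symbol). Summed over the table, RPKM per library was 22242 to 22330 in young controls, 23629 to 24853 in aged controls and 22861 to 23632 in aged-repopulated brains.

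Members, gene lists and rules were chosen with earlier results of these data known. Text names the 4 members, all pathway list genes in the table except 1 that is counted and not reported here, and for each member the 3 genes nearest in pattern and the 1 nearest within groups. Alternatives were pseudocounts of 0.1 and 10, untransformed RPKM, median centring, quantile normalization, loess corrections for transcript length and GC content, a minimum mean of 20 RPKM, only the groups compared, no variance moderation and each library left out. Median centring, quantile normalization and both loess corrections also remove a shift shared by all genes of a library. No replicate numbers are shared in the labels, so nothing was paired.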

Additional observations from a re-analysis of the deposited data

How the results depend on the processing

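The difference of *Idh1* with age was called in all 18 alternatives that gave it a value, that of *Ddhd1* in 17 of 18, of *Acadl* in 13 of 18 and of *Gpcpd1* in 13 of 19, and none changed sign. The fit without a call of *Ddhd1* was the length correction (-0.004). Leaving out an aged-repopulated library, fitting only the groups compared or dropping moderation could not change a difference with age, only its standard error. The tallies therefore overstate the number of separate checks. With a mean of at least 20 RPKM only *Gpcpd1* could be fitted. The number of members called with age was 2 with the length correction, 1 with that minimum and 2 to 4 with 1 library left out, with 2 without young control library 3 or aged control library 2. With repopulation it was 0 with the length correction, the minimum or only the groups compared, and 0 to 2 with 1 library left out. Against young controls it was 1 with median centring, quantile normalization and the length and GC corrections (*Idh1*) and 1 with only the groups compared (*Gpcpd1*). Reversed differences were small: *Ddhd1* against young controls was -0.004 with centring, and *Idh1* with repopulation was -0.01 without aged control library 3 and ranged from there to 0.043 with other libraries left out.

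For the 13 other pathway genes, calls with age were 7 with centring or quantile normalization, 6 with the length or GC correction or the minimum, and 7 to 11 with 1 library left out. With repopulation they were 3 with centring, 1 with quantile normalization and 0 to 3 with 1 library left out, and against young controls 1 untransformed, 1 without moderation and 1 to 3 with 1 library left out. Over the 689 genes, calls with age were 277 with quantile normalization (88 higher, 189 lower), 160 with the length correction (65 higher, 95 lower), 251 with the minimum and 269 to 438 with 1 library left out, and the GC correction gave 109 higher and 185 lower. With repopulation they were 21 untransformed, 133 with centring (111 higher, 22 lower), 6 with the length correction, 31 with the minimum, 5 with only the groups compared, 5 without moderation and 2 to 141 with 1 library left out, the highest without aged control library 1 and the lowest without aged-repopulated library 3. Against young controls they were 6 untransformed, 61 with centring, 70 with the length correction, 22 with the minimum, 9 without moderation and 11 to 59 with 1 library left out. The cause was not tested. No paired analysis was possible because the labels give no shared replicate numbers. With 3 mice a group, unknown depth and a table selected on these libraries, differences outside the table were not analysed here.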
